A study of Homo sapiens with 12 samples.

Results

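The genes described here encode subunits of respiratory chain complexes I to IV that are made from nuclear DNA. They were chosen by gene symbol: rows whose symbol starts with NDUFA, NDUFB, NDUFC, NDUFS or NDUFV and a number, with UQCR, or with COX4 to COX8, and SDHA to SDHD. Of 14828 genes in the deposited table, 66 rows matched, 2 antisense rows were left out, and the remaining 64 were all expressed highly enough to be tested among 14624 genes. By complex, 35 belong to complex I, 4 to complex II, 10 to complex III and 15 to complex IV, with NDUFA4 and NDUFA4L2 placed in complex IV, where the NDUFA4 protein is known to reside. The symbols also take in 4 pseudogene rows (NDUFV2P1, UQCRFS1P1, COX6A1P2 and COX7A2P2) and UQCRHL, a near copy of UQCRH, whose reads are hard to assign. NDUFV2 and the alternative cytochrome c oxidase isoforms COX4I2, COX6A2, COX6B2, COX7A1, COX7B2 and COX8C were not analysed here.

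The study asked how the transcriptome of a prostate cancer cell line changes when CENPA, the histone H3 variant that marks centromeres, is depleted. The cells were 22Rv1, a human prostate carcinoma line, stably carrying a lentiviral vector that expresses a short hairpin RNA only when doxycycline is present. The hairpin was nontargeting (shNT) or 1 of 2 directed against CENPA (shCENPA1 and shCENPA2), and all 3 groups, the controls included, received doxycycline at 2 µg/ml for 72 h. Each group had 2 stranded mRNA libraries, each run in lanes 7 and 8, and the mean of both lanes of a library was used, so that n = 2 libraries per group. Nothing in the labels says whether the libraries came from separate cultures, or whether the cells selected after transduction were a pool or a clone.

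Values are log2 RPKM, that is, reads scaled by gene length and by the size of the run and then put on a log2 scale. Libraries held 79172294 to 133074655 reads on genes, and the members 88 to 108838 reads per library. CENPA itself was at 2.46 and 2.18 log2 RPKM under shNT, at 0.50 and 0.58 under shCENPA1, and at -0.47 and -0.41 under shCENPA2. Its log2 fold change against shNT was -1.78 with shCENPA1 and -2.76 with shCENPA2 (limma, adjusted p = 0.000287 and 1.13e-05), so the labels match the target. All 11 markers of prostate luminal epithelium looked for were in the table, with summed levels of 981 to 1041 RPKM across libraries. None of 4 endothelial and none of 3 basal markers was listed. Of 6 fibroblast markers 3 were listed (COL1A1, DCN and LUM), and they summed to 3.68 to 3.95 RPKM in shNT, 3.55 to 3.57 in shCENPA1 and 5.86 to 5.98 in shCENPA2. The part of these low levels in the results was not tested, and in such bulk RNA fewer cells of a type and less RNA per cell cannot be told apart.

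The respiratory chain lies in the inner membrane of mitochondria. Complex I takes electrons from NADH and complex II takes them from succinate, complex III passes them to cytochrome c, and complex IV hands them to oxygen. Complexes I, III and IV pump protons as they work, and ATP synthase uses the returning protons to make ATP. Most subunits are encoded in the nucleus and a few in mitochondrial DNA, and transcription factors such as NRF1, GABPA, YY1 and ESRRA, with coactivators of the PGC-1 family, are known to drive the nuclear genes. Prostate cancer cells are known for a more active citric acid cycle and respiration than normal prostate epithelium.

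With shCENPA2, 22 of the 64 members rose and 0 fell, each at an adjusted p under 0.05 over all genes tested (limma, Benjamini-Hochberg). Among all genes tested, 8.05% were called higher and 10.5% lower in this comparison, against 34.4% and 0% of the members. The rise was small for most: the median log2 fold change of the members was 0.33, against 0.01 for all genes tested. With shCENPA1, 1 member rose and 0 fell, where 2.69% of all genes were called higher and 4.45% lower, and the median of the members was 0.18 against 0.00 for all genes. In neither comparison was a member lower at an unadjusted p under 0.05, while 18 and 40 members were higher at that level with shCENPA1 and shCENPA2, 28.1% and 62.5% of the members against 10.7% and 15.3% of all genes. With limma's voom on recovered reads, 4 and 29 members rose (6.25% and 45.3%, against 3.47% and 9.59% of all genes) and 0 fell. NDUFA4L2 was the 1 member that passed the test with a log2 fold change beyond 1, a limit that 0.821% of all genes passed upward with shCENPA1 and 1.68% with shCENPA2. A log2 fold change above 0 was seen for 57 of 64 members with shCENPA1 (50.6% of all genes) and 60 of 64 with shCENPA2 (51.6% of all genes). Both shCENPA1 libraries lay above both shNT libraries for 38 members, 59.4% against 29.9% of all genes, and both shCENPA2 libraries did so for 52 members, 81.2% against 31.5%. The comparisons share the shNT libraries, so the counts are not independent.

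The count with shCENPA2 depended on single libraries. It was 7 without shNT library 1, 9 without shNT library 2 and 13 without shCENPA2 library 2, where the share of all genes called higher was 3.83%, 3.3% and 7.83%. In 5 members, NDUFA4L2, UQCRC2, SDHA, NDUFA8 and NDUFV1, the call held under every alternative that kept the call rule, that is, all but the added limit of a log2 fold change beyond 1, under which NDUFA4L2 alone was called. Without the 4 pseudogene rows and UQCRHL, 22 of 59 members (37.3%) were called.

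**Figure D1:**
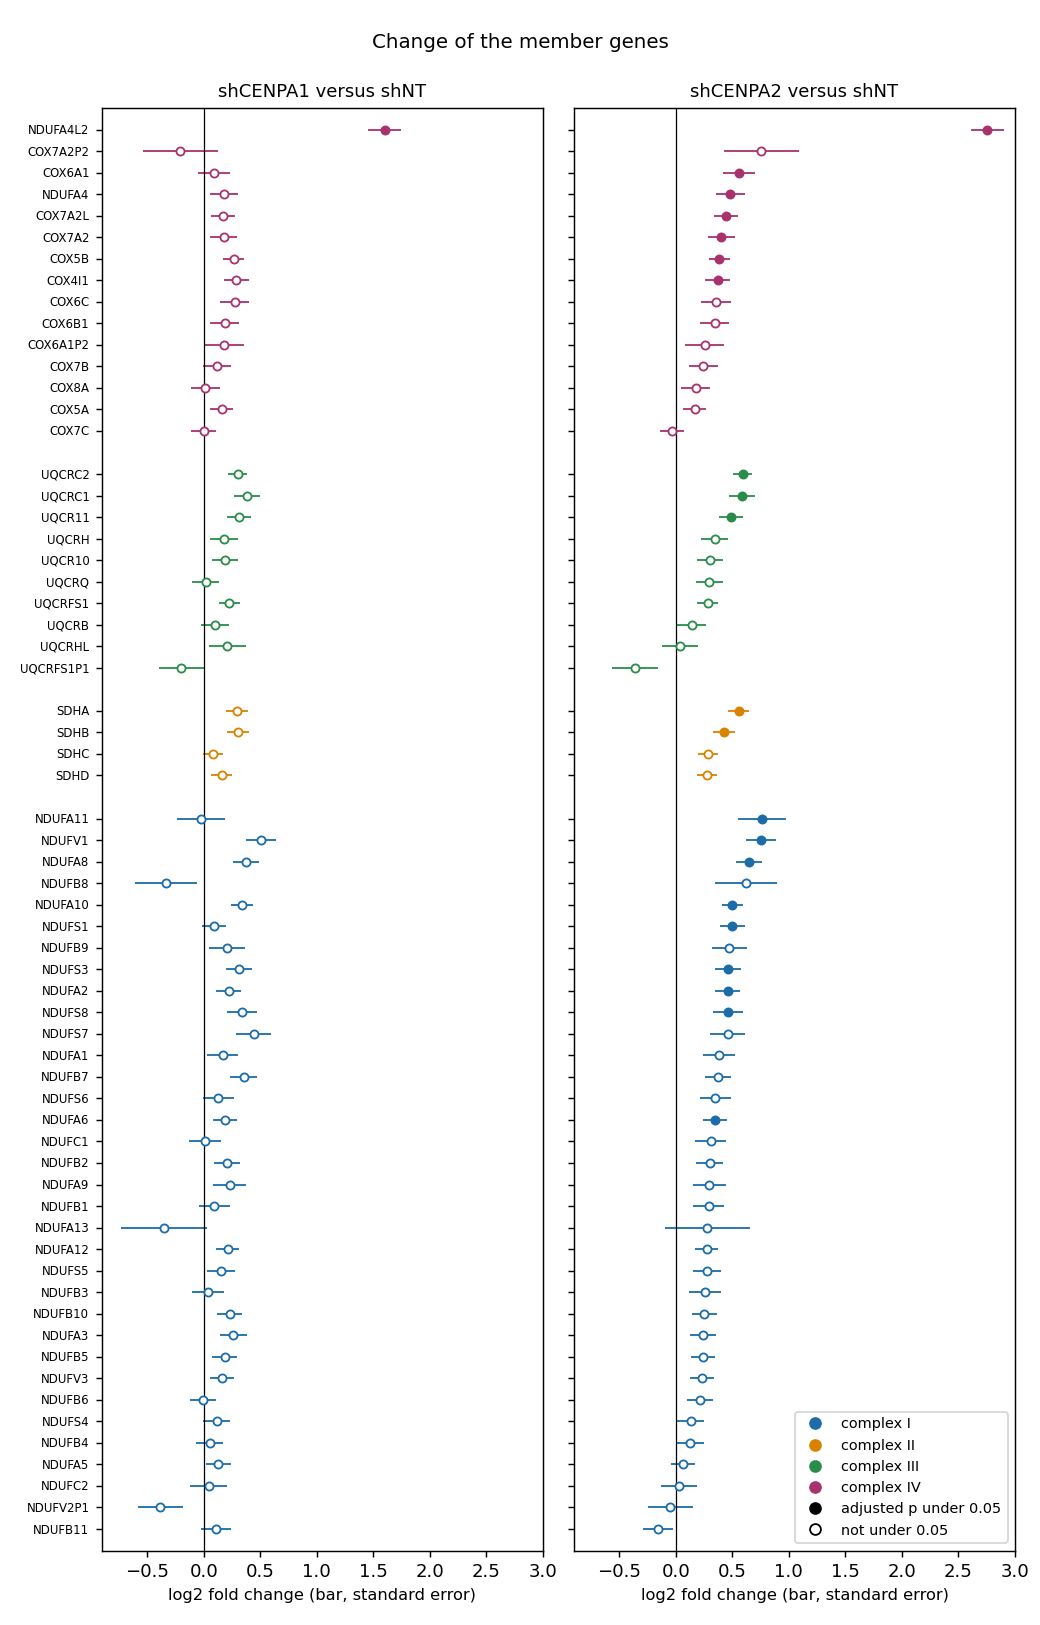
Log2 fold change against shNT of 63 of the 64 members, by complex and ordered by the shCENPA2 value, with bars of 1 standard error (limma, 2 libraries per group). Filled points passed an adjusted p of 0.05: 1 with shCENPA1 and 21 with shCENPA2 (the member not drawn is among the 22 called and is not reported here), NDUFA4L2 lying far to the right in both panels.

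**Figure D2:**
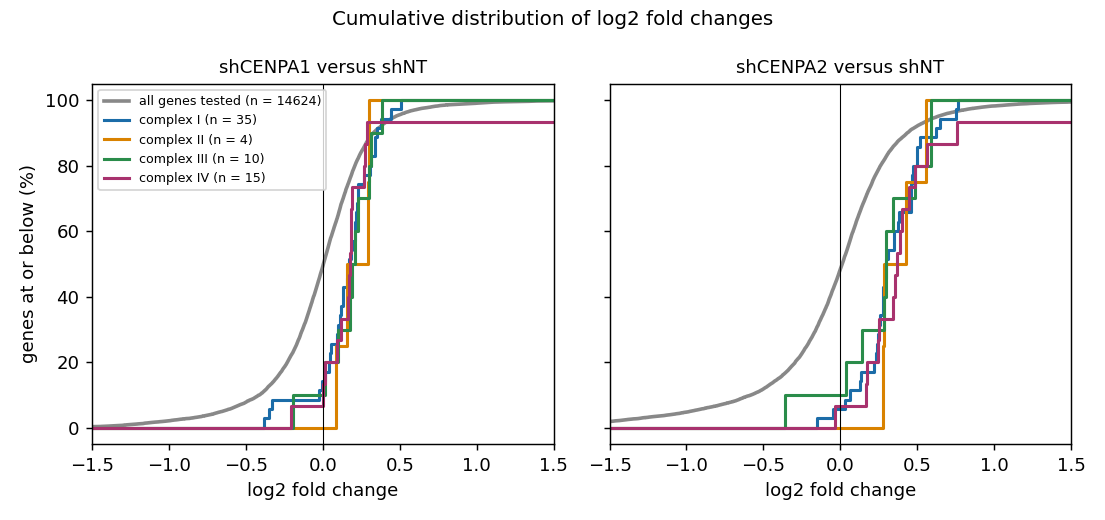
Share of genes at or below each log2 fold change, for complexes I to IV and for all 14624 genes tested, cut at 1.5 on either side (NDUFA4L2 lies beyond). The curves of the complexes lie to the right of the curve of all genes over most of their range, further so with shCENPA2 (median of the members 0.33) than with shCENPA1 (0.18).

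The libraries of a knockdown group were not equal. Against the shNT mean, the median difference over the members was 0.09 and 0.30 log2 in shCENPA1 libraries 1 and 2, and 0.24 and 0.40 in shCENPA2 libraries 1 and 2. Library 2 of shCENPA1 was above library 1 for 59 of 64 members and library 2 of shCENPA2 for 48, with median gaps of 0.21 and 0.17, whereas the shNT libraries differed by a median of -0.01. Over all genes tested the 4 knockdown libraries lay within 0.02 of the shNT mean. The 2 lanes of a library differed by a median of 0.02 to 0.03 in each library.

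Since the members were mostly higher, their promoters were read for the letters that the factors named above are known to bind. RefSeq promoter windows (GRCh38.p14, 250 bases before to 50 after a gene's start) were given for 49 members in 58 windows. They were not given for the other 15, among them NDUFA4L2 and NDUFA4. The 8 letters GCATGCGC, the core of the NRF1 motif, were found on either strand in 17.2% of member windows and in 3.05% of 35116 windows of all genes. The NRF1 form with GC in front of these letters, which contains the shorter one, was in 5.17% against 1.24%. The ETS core CCGGAAG, bound by GABPA, was in 25.9% against 10.3%, and the YY1 letters AAGATGGCG in 12.1% against 1.75%. Of the 19 members called with shCENPA2 and the 30 not called that have a window, GCATGCGC was in 5 and 5, CCGGAAG in 7 and 8, and AAGATGGCG in 3 and 4. A match is a description of letters and not evidence of binding.

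The 5 called members with GCATGCGC are shown because they are the members in which both the letters and a rise were found. Each window is written 5′ to 3′ along the gene's strand, with the letters in capitals, as GCATGCGC or, where the match is on the opposite strand, as GCGCATGC. The first letter counts from the gene's start, negative before it.
NDUFA6 (position -166, chr22:42090920-42090949, minus strand): tctgtagatgaGCATGCGCagcacccaccg
NDUFA8 (position -2, chr9:122159763-122159792, minus strand): ttgccggatgcGCATGCGCaggcgccgtgt
SDHB (position -200, chr1:17054214-17054243, minus strand): aagccaaatggGCATGCGCcgctactgcgc
COX5B (position -136, chr2:97645915-97645944, plus strand): ggcagagctggGCATGCGCaatttccgccc
COX6A1 (position -218, chr12:120437884-120437913, plus strand): ggagggcacacGCATGCGCacgaaggaaac

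The 5 members with these letters that were not called are given for comparison, in the same form. Of these, NDUFA5 and NDUFB4 had log2 fold changes of 0.06 and 0.13 with shCENPA2.
NDUFA5 (position -158, chr7:123557958-123557987, minus strand): gtatgcccatcGCGCATGCgtcaatttttc
NDUFB4 (position -157, chr3:120596168-120596197, plus strand): gagcacttcgcGCATGCGCatatcaccgag
NDUFS6 (position -46, chr5:1801350-1801379, plus strand): ccagaagccgtGCGCATGCgttagcgctaa
NDUFS7 (position -73, chr19:1383823-1383852, plus strand): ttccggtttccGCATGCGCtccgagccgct
SDHD (position -108, chr11:112086754-112086783, plus strand): gctgtgtttgcGCATGCGCgacgggtgtgc

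The promoters of SDHB, COX5B, COX6A1 and SDHD each hold the NRF1 letters and the ETS core CCGGAAG upstream of the start, and SDHD was not called. For SDHB and COX5B, the stretches that span both are shown with both in capitals. Neither stretch overlaps an exon in GENCODE 44.
SDHB (chr1:17054118-17054247, minus strand): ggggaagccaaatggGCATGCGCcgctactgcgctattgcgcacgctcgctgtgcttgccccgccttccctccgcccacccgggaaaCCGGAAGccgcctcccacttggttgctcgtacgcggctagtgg
COX5B (chr2:97645912-97646041, plus strand): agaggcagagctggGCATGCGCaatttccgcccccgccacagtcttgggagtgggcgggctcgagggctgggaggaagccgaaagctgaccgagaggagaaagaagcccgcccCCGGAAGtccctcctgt

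The YY1 letters, in capitals, lay just after the start in the 3 called members that hold them. They did so too in the 4 that were not called, at position 10 in NDUFA9, 17 in NDUFB8 and NDUFS7, and 21 in NDUFS4.
NDUFA6 (position 25, chr22:42090729-42090758, minus strand): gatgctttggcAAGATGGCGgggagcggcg
SDHB (position 10, chr1:17054004-17054033, minus strand): cgtcaggagccAAGATGGCGgcggtggtcg
UQCRC1 (position 23, chr3:48609605-48609634, minus strand): actgcagctggAAGATGGCGgcgtccgtgg

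In complex I, the entry point for electrons from NADH, 10 of 35 members rose with shCENPA2 (28.6%, against 8.05% of all genes). None was called with shCENPA1, where 2.69% of all genes were called higher. At an unadjusted p under 0.05 in limma, 9 were higher with shCENPA1 (25.7%, against 10.7% of all genes). Voom called 2 (5.71%, against 3.47% of all genes). The medians of the log2 fold changes were 0.30 and 0.17. The core subunits carry the flavin and the iron-sulfur clusters, and the accessory subunits surround them. NDUFV1 holds the flavin that accepts electrons from NADH, and its gene lies at chr11:67605653-67612554 (GRCh38, plus strand). Its levels were 5.25 and 5.20 log2 RPKM in shNT, 5.58 and 5.89 with shCENPA1, and 6.15 and 5.81 with shCENPA2. Of its exon length, 8.36% is shared with an overlapping gene on the same strand. Neither knockdown group overlapped shNT. The log2 fold change was 0.51 ± 0.13 (SE) with shCENPA1, which missed the threshold (limma, adjusted p = 0.0541), and 0.76 ± 0.13 with shCENPA2 (adjusted p = 0.00415).

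NDUFS1, the largest iron-sulfur subunit, was at 2.76 and 2.93 log2 RPKM in shNT, 3.02 and 2.85 with shCENPA1, and 3.34 and 3.35 with shCENPA2, so that only shCENPA2 lay apart from shNT. It rose by 0.50 with shCENPA2 (limma, adjusted p = 0.0122) and had 0.09 with shCENPA1. NDUFS3 and NDUFS8 each rose by 0.46 with shCENPA2, and 16% of the exon length of NDUFS3 is shared on its strand with PTPMT1. NDUFS7, which carries the last cluster before quinone, also had 0.46 with shCENPA2 but missed the threshold (limma, adjusted p = 0.0699).

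Among accessory subunits of complex I, 5 of 11 NDUFA genes rose with shCENPA2 and 0 of 11 NDUFB genes did. These are 45.5% and 0%, against 8.05% of all genes. Of the NDUFB genes, 5 were higher with shCENPA2 at an unadjusted p under 0.05 in limma (45.5%, against 15.3% of all genes). Voom called 2 of them (18.2%, against 9.59% of all genes). NDUFA8 (chr9:122144058-122159779, minus strand) was at 6.43 and 6.36 log2 RPKM in shNT, 6.64 and 6.90 with shCENPA1, and 6.95 and 7.13 with shCENPA2. The 3 groups did not overlap, and the change was 0.38 ± 0.11 with shCENPA1 (limma, adjusted p = 0.0864) and 0.65 ± 0.11 with shCENPA2 (adjusted p = 0.00393). NDUFA10 rose by 0.50, NDUFA2 by 0.46 and NDUFA6 by 0.35 with shCENPA2. NDUFA11 rose by 0.76 with shCENPA2 and had -0.02 with shCENPA1, but it rests on 287 to 962 reads per library, shares 9.65% of its exon length with an overlapping gene on the same strand, so that its level too is uncertain, and its shCENPA2 call was lost in 8 of 19 alternatives. On leaving out 1 library, the calls of NDUFS1 and NDUFA10 were lost without shNT library 1 (limma, adjusted p = 0.149 and 0.0812), and those of NDUFS3, NDUFS8, NDUFA2 and NDUFA6 without either shNT library. The NDUFB genes, which belong to the membrane arm, ranged from -0.15 for NDUFB11 to 0.62 for NDUFB8 with shCENPA2, with a median of 0.26. NDUFB8 (338 to 1801 reads) and NDUFA13 (88 to 213 reads) share 33.8% and 21% of their exon length with an overlapping gene on the same strand, so their levels are uncertain. The lowest member with shCENPA1 was the pseudogene row NDUFV2P1, at -0.38 (adjusted p = 0.306).

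**Figure D3:**
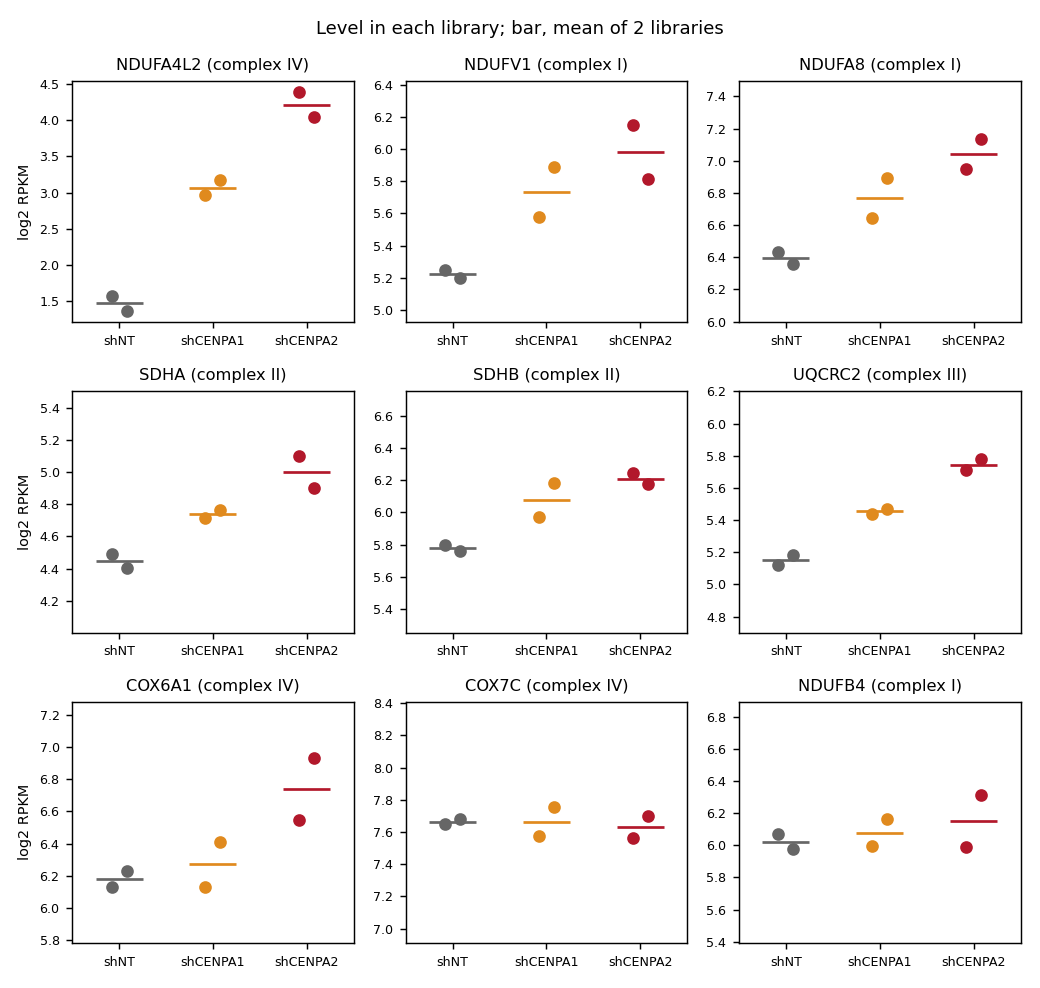
Level in log2 RPKM of 9 members in each library (points) with the group mean (bar), each panel spanning at least 1.5 log2 units. NDUFV1, NDUFA8, SDHA, SDHB and UQCRC2 lie higher in both libraries of each knockdown group than in shNT, COX6A1 only with shCENPA2, while COX7C and NDUFB4 overlap between groups.

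Complex II, succinate dehydrogenase, also serves as an enzyme of the citric acid cycle and has no subunit from mitochondrial DNA. SDHA and SDHB, the flavin and iron-sulfur subunits of its catalytic head, rose with shCENPA2, while the membrane anchors SDHC and SDHD did not pass the test. The 2 called of 4 are 50%, against 8.05% of all genes. SDHA (chr5:218303-257082, plus strand) was at 4.49 and 4.40 log2 RPKM in shNT, 4.71 and 4.76 with shCENPA1, and 5.10 and 4.90 with shCENPA2. The 3 groups were apart, with changes of 0.29 ± 0.10 (limma, adjusted p = 0.112) and 0.56 ± 0.10 (adjusted p = 0.0038). An overlapping gene shares 21.7% of the SDHA exon length. SDHB was at 5.80 and 5.76 in shNT, 5.97 and 6.19 with shCENPA1, and 6.24 and 6.17 with shCENPA2, and its change with shCENPA2 was 0.43 ± 0.10 (adjusted p = 0.0141). Here the knockdown groups overlapped each other and not shNT. SDHC and SDHD had 0.29 and 0.28 with shCENPA2 (limma, adjusted p = 0.0583 and 0.0652), with all libraries above shNT, and 0.08 and 0.16 with shCENPA1. All 4 SDH genes lay above both shNT libraries in every knockdown library. Of all genes tested, 29.9% did so in both shCENPA1 libraries and 31.5% in both shCENPA2 libraries. The call of SDHB was lost without either shNT library or without shCENPA2 library 1 (limma, adjusted p up to 0.122).

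In complex III, which passes electrons from quinol to cytochrome c, 3 of 10 members rose with shCENPA2 (30%, against 8.05% of all genes). None was called with shCENPA1, where 2.69% of all genes were called higher. At an unadjusted p under 0.05 in limma, 4 were higher with shCENPA1 (40%, against 10.7% of all genes). Voom called 1 (10%, against 3.47% of all genes). UQCRC1 and UQCRC2 are its large core proteins. UQCRC2 (chr16:21953288-21983660, plus strand) was at 5.12 and 5.19 log2 RPKM in shNT, 5.44 and 5.47 with shCENPA1, and 5.71 and 5.78 with shCENPA2. The gaps between the 3 groups exceeded the spread within each, and the change was 0.30 ± 0.08 with shCENPA1 (limma, adjusted p = 0.0653) and 0.59 ± 0.08 with shCENPA2 (adjusted p = 0.00125). UQCRC1 had 0.39 with shCENPA1 (adjusted p = 0.0827) and rose by 0.59 with shCENPA2 (adjusted p = 0.00698). The small subunit UQCR11 rose by 0.49 with shCENPA2, and 11% of its exon length is shared with an overlapping gene on the same strand. The call of UQCRC1 was lost without shNT library 2 (limma, adjusted p = 0.0508), and that of UQCR11 without either shNT library or shCENPA2 library 2 (adjusted p up to 0.0708). UQCRFS1, the Rieske iron-sulfur protein, had 0.23 and 0.28 with shCENPA1 and shCENPA2 (adjusted p = 0.202 and 0.0723). The lowest value was that of its pseudogene row UQCRFS1P1, -0.20 and -0.36, on 123 to 277 reads. UQCRHL had 0.21 and 0.04, and UQCRH 0.18 and 0.34, none of them past the threshold.

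In complex IV, cytochrome c oxidase, 7 of 15 members rose with shCENPA2 and 1 with shCENPA1. These are 46.7% and 6.67%, against 8.05% and 2.69% of all genes. NDUFA4L2, at chr12:57234903-57240715 (minus strand), was called in both. It encodes a paralog of NDUFA4 known as a gene induced under low oxygen. Its levels were 1.57 and 1.35 log2 RPKM in shNT, 2.96 and 3.17 with shCENPA1, and 4.39 and 4.04 with shCENPA2, on 854 to 8759 reads. The groups did not overlap, and the mean went from 2.75 RPKM in shNT to 8.36 and 18.6 RPKM. The log2 fold change was 1.60 ± 0.14 with shCENPA1 (limma, adjusted p = 0.00028, 3.03-fold) and 2.76 ± 0.14 with shCENPA2 (adjusted p = 6.3e-06, 6.76-fold).

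NDUFA4, the paralog that is abundant here, was at 7.13 and 7.24 log2 RPKM in shNT, 7.28 and 7.45 with shCENPA1, and 7.50 and 7.83 with shCENPA2. It rose by 0.48 ± 0.13 with shCENPA2 (limma, adjusted p = 0.0281) and had 0.18 with shCENPA1. Of the other complex IV members, COX6A1 rose by 0.56 with shCENPA2, with 6.13 and 6.23 log2 RPKM in shNT and 6.55 and 6.93 with shCENPA2, while its shCENPA1 libraries (6.13 and 6.41) overlapped shNT. COX6A1 shares 13.1% of its exon length with an overlapping gene on the same strand. COX7A2L, known for its part in joining complexes III and IV, rose by 0.44, COX7A2 by 0.40, COX5B by 0.39 and COX4I1 by 0.37. The calls of COX4I1 and COX7A2 lie close to the threshold (limma, adjusted p = 0.0455 and 0.0468). The calls of COX6A1, COX7A2L, COX7A2, COX5B, COX4I1 and NDUFA4 were all lost without shNT library 1 (limma, adjusted p up to 0.276 over the libraries left out). COX7C, at 7.65 and 7.68 log2 RPKM in shNT, had 0.00 and -0.03 with shCENPA1 and shCENPA2. Among the other subunits not called, COX6C had 0.35, COX7B 0.24, COX5A 0.17 and COX8A 0.18 with shCENPA2, and COX8A is uncertain because 35.4% of its exon length is shared with an overlapping gene on the same strand. COX6B1, the member with the highest level per length in shNT (250 RPKM), had 0.34 with shCENPA2 (adjusted p = 0.0931). The pseudogene row COX7A2P2 scattered from 2.42 to 4.01 log2 RPKM on 138 to 541 reads and was not called.

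Between the knockdown groups, NDUFA4L2 was the 1 member called, higher with shCENPA2 than with shCENPA1 by 1.15 ± 0.14 log2 (limma, adjusted p = 0.00573), where 0.39% of all genes were called higher and 1.03% lower. This call was lost without either shCENPA1 library (adjusted p up to 0.0917). No member was called lower with shCENPA2 than with shCENPA1, though 7 of 64 had a log2 fold change below 0. At an unadjusted p under 0.05 in limma, none was lower and 12 were higher (18.8%, against 5.46% of all genes). The median of the members was 0.16 log2. For NDUFV1 the difference was 0.25, with a 95% interval of -0.05 to 0.55, and for SDHA it was 0.26 (0.05 to 0.48), neither called after adjustment over all genes. Each interval is unadjusted. CENPA was also lower with shCENPA2 than with shCENPA1, by -0.98 log2.

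**Figure D4:**
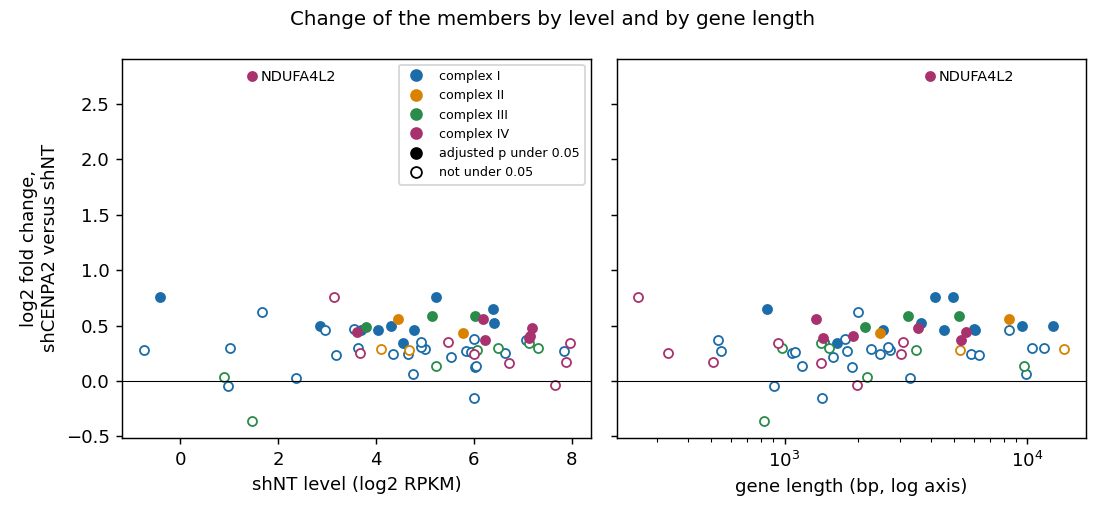
Log2 fold change of the 64 members with shCENPA2 against their mean shNT level (left) and their gene length on a log axis (right), colored by complex and filled where called. Apart from NDUFA4L2 at 2.76, the called members lie between 0.35 and 0.76 over nearly the whole range of levels.

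Level and length were set beside the changes. Across the 63 members without NDUFA4L2, which share the same libraries, Pearson's r of the shCENPA2 log2 fold change was 0.00 with the shNT log2 RPKM and 0.17 with log2 gene length. For shCENPA1 these were 0.40 and 0.30. The called members had a median gene length of 3809 bp and the others 1941 bp, at like median levels in shNT of 31.3 and 34.6 RPKM. After the trend with gene length was removed from each library, 28 members were called higher with shCENPA2 and 2 with shCENPA1. Of all genes, 8.81% and 2.94% were then called higher.

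Other genes of the pathway were read from lists made with earlier results of these data known. Cytochrome c (CYCS) rose by 0.45 with shCENPA2 (limma, adjusted p = 0.0149), and CYC1, the cytochrome subunit of complex III that the symbol rule leaves out, had 0.34 (adjusted p = 0.0755). NDUFAB1, the acyl carrier subunit of complex I, had 0.29 (adjusted p = 0.0777). HIGD2A, the remaining gene of this list, had -0.03 with shCENPA2 (limma, adjusted p = 0.871) and 0.11 with shCENPA1. Of 19 ATP synthase genes, 4 rose with shCENPA2 and 0 with shCENPA1, with medians of 0.23 and 0.10. The share with shCENPA2 was 21.1%, against 8.05% of all genes, and with shCENPA1 it was 0%, against 2.69%. In limma, 1 of the 19 was higher with shCENPA1 at an unadjusted p under 0.05 (5.26%, against 10.7% of all genes). Voom called 0, against 3.47% of all genes. The catalytic subunits ATP5A1 and ATP5B rose by 0.50 and 0.56 with shCENPA2. Of 14 citric acid cycle enzymes, 10 rose with shCENPA2 and 2 with shCENPA1 (71.4% and 14.3%, against 8.05% and 2.69% of all genes). IDH2 fell by 0.51 with shCENPA2. The CYCS call was lost without either shNT library or shCENPA2 library 2 (limma, adjusted p up to 0.129). IDH3B, a subunit of NAD-linked isocitrate dehydrogenase, had 0.46 and 0.73, both past the threshold. Its shCENPA1 call was lost without any 1 of the shNT or shCENPA1 libraries. It was also lost in lane 8 alone, with a replicate block and without the variance trend.

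The assembly factors, which build the complexes without staying in them, did not move as 1 group. Of 17 for complex I, 2 rose and 1 fell with shCENPA2 (11.8% and 5.88%, against 8.05% and 10.5% of all genes). FOXRED1, which is needed for complex I assembly, fell by 0.70 with shCENPA1 and by 0.92 with shCENPA2 (limma, adjusted p = 0.00639 and 0.000657). Its levels were 4.04 and 4.06 log2 RPKM in shNT, 3.26 and 3.44 with shCENPA1, and 3.27 and 3.00 with shCENPA2, so neither knockdown group reached shNT. ECSIT rose by 0.49 and 0.50. Of 4 factors for complex II, SDHAF3 fell by 0.40 with shCENPA2, and of 6 for complex III, UQCC1 rose by 0.43 and 0.66. Of 25 for complex IV, 4 rose with shCENPA2 (16%, against 8.05% of all genes). Among them were COX10 (heme synthesis, 0.43 and 0.59) and SCO2 (copper delivery, 0.38 and 0.42), which were called with both hairpins. On leaving out 1 library, the shCENPA1 calls of ECSIT, UQCC1, COX10 and SCO2 were lost without either shNT library, and that of FOXRED1 without shCENPA1 library 1. With all libraries kept, the shCENPA1 calls of ECSIT, UQCC1, COX10 and SCO2 were also lost with a replicate block and without the variance trend.

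The 13 subunits encoded in mitochondrial DNA were read apart from the nuclear ones. Their median log2 fold changes were -0.10 and -0.15 with shCENPA1 and shCENPA2, and none rose in limma, at an unadjusted p under 0.05 or with voom. MT-ND6 fell by 0.93 and 1.08 (limma, adjusted p = 0.0261 and 0.00627). With voom, 1 and 3 of the 13 were called lower (7.69% and 23.1%, against 5.95% and 12.1% of all genes). These genes varied widely within groups, with medians of 0.18 and -0.18 in the 2 shNT libraries against their mean. Of 77 mitochondrial ribosomal protein genes, 8 rose (10.4%, near the 8.05% of all genes) and 1 fell with shCENPA2, with a median of 0.07. Of 83 cytosolic ribosomal protein genes, 0 rose and 4 fell with shCENPA2 (4.82%, against 10.5% of all genes called lower), with a median of -0.21. At an unadjusted p under 0.05 in limma, 0 were higher and 18 lower (21.7%, against 17% of all genes). With voom, 0 were called higher and 11 lower (13.3%, against 12.1% of all genes). The libraries that stood higher over the members, library 2 of shCENPA1 and of shCENPA2, also stood higher than library 1 over cytosolic ribosomal protein genes, at 0.12 against -0.13 and at -0.13 against -0.29. The part of this in the results was not tested.

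**Figure D5:**
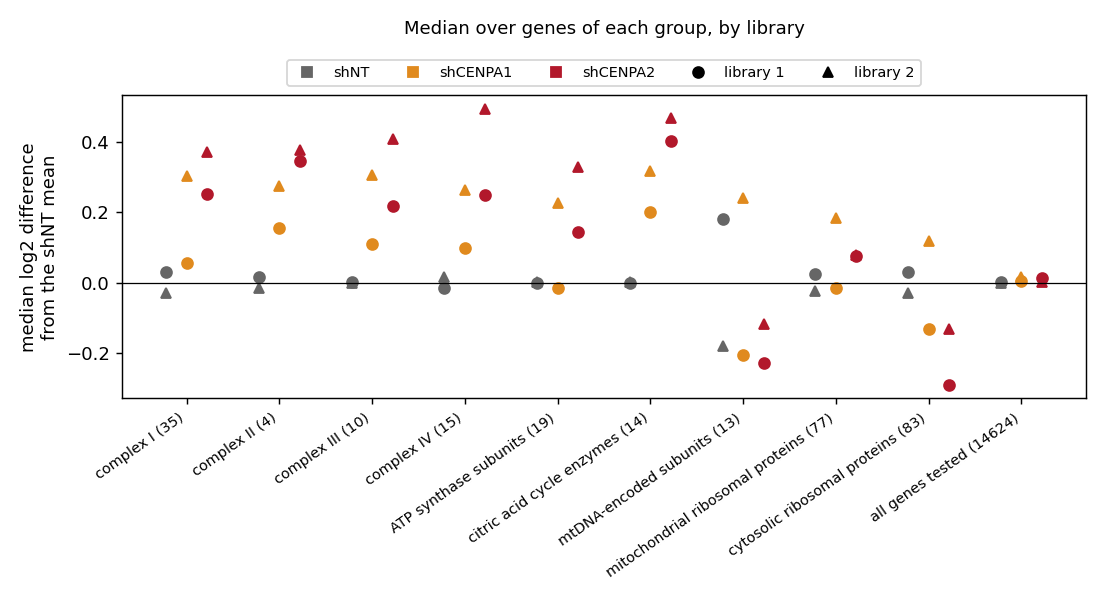
Median over the genes of each group of the log2 difference of a library from the shNT mean, with the number of genes in brackets (circles, library 1, and triangles, library 2). The 4 complexes and the citric acid cycle enzymes lie above 0 in all 4 knockdown libraries. Of these libraries, subunits encoded in mitochondrial DNA lie above 0 only in shCENPA1 library 2 (0.24). All genes tested lie within 0.02 of 0.

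Among 21 regulators of respiratory genes and of mitochondrial DNA, 3 rose and 1 fell with shCENPA2. These are 14.3% and 4.76%, against 8.05% and 10.5% of all genes. PPARGC1B, a PGC-1 family coactivator, was at 1.15 and 1.20 log2 RPKM in shNT, 2.54 and 2.12 with shCENPA1, and 3.12 and 2.98 with shCENPA2. It rose by 1.15 and 1.87 (limma, adjusted p = 0.00178 and 4.81e-05). ESRRA rose by 0.51 and NRF1 by 0.42 with shCENPA2, where both had missed the threshold with shCENPA1 at 0.30 and 0.10. GABPA had -0.16 and TFAM, which packs and transcribes mitochondrial DNA, -0.24 with shCENPA2, neither called. The NRF1 call was lost without either shNT library or shCENPA2 library 1, and the ESRRA call without shNT library 2 (limma, adjusted p up to 0.149). MYC, a driver of growth and of mitochondrial genes, fell by 0.35 with shCENPA1 and by 1.18 with shCENPA2 (limma, adjusted p = 0.0489 and 3.66e-05). The MYC call with shCENPA1 was lost without any 1 of the shNT or shCENPA1 libraries. It was also lost in lane 8 alone, with a replicate block, with median-centred libraries and without the variance trend. PPARGC1A was not analysed here.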

How the data were processed

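The authors sequenced stranded mRNA libraries and, by the submitters' notes and the methods, used TrimGalore, STAR with hg38, HTSeq and edgeR. They deposited log2 RPKM for 12 runs. Versions and the strand setting of the counting are not given in the sources used here. Both lanes of each library were combined as their mean, genes whose mean over libraries reached -3 log2 RPKM were kept, and 1 model of 3 groups was fitted to them by limma 3.58.1 (R 4.3.3) with eBayes and its trend option. No constant was added to the deposited values, which already hold a prior count of 0.25 reads at the mean run size, so fold changes of low genes are understated. A call is a Benjamini-Hochberg adjusted p under 0.05 over all genes tested, with no fold limit. An exact permutation test of 2 against 2 libraries cannot go below p = 0.33, so none was used. With nothing to show separate cultures, p-values measure only the spread between these libraries. For 14828 of 14828 genes the step size in the log2 values gave back whole reads (within 4.6e-08 of a whole number), and with them depth and gene length. The fit and the recovery were tested on simulated data.

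The genes named are CENPA, called members, the highest and lowest member of each complex, fixed core subunits, isoforms and regulators, near copies, and genes of other lists called with both shRNAs. The other genes named (the NDUFB genes, NDUFA5, NDUFA13, UQCRH, COX5A, COX6B1, COX6C, COX7B, COX8A, NDUFA9, NDUFS4, NDUFS6, ATP5A1, ATP5B, IDH2 and SDHAF3) were chosen after their values were seen. The same holds for HIGD2A and MT-ND6. Members and lists were chosen with earlier results of these data known, and a list of hypoxia response genes was added after the value of NDUFA4L2 was seen. Positions and exon overlaps are from GENCODE 44 and promoter windows from RefSeq. Alternatives were lanes kept apart, a replicate block, other filters, constants (0.1 and 1 RPKM) and scalings, voom, a length correction and each library left out in turn. All deposited run columns were used. Some single genes counted in the groups are not reported here by name.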

Additional observations from a re-analysis of the deposited data

Results flagged for a closer look

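Of the genes named, 3 differed between the effects of the 2 CENPA hairpins in a test of that difference (limma contrast of shCENPA2 with shCENPA1, adjusted over all genes). CENPA was lower with shCENPA2 by -0.98 log2 (adjusted p = 0.0209), and the call was lost without either shCENPA1 library, without shCENPA2 library 2, with 1 RPKM added and with voom (adjusted p up to 0.212). NDUFA4L2 was higher with shCENPA2 by 1.15 log2 (adjusted p = 0.00573), in 2 of 2 libraries, and the call was lost without either shCENPA1 library (adjusted p up to 0.0917). MYC was lower with shCENPA2 by -0.84 log2 (adjusted p = 0.0027), and this call was lost without shCENPA1 library 2 (adjusted p = 0.0626).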

How the results depend on the processing

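Against 22 members called with shCENPA2, 40 were called with lanes as replicates, 12 without the variance trend and 1 with a log2 fold change beyond 1 asked for as well, and leaving out a library gave 7 to 22. Against 1 with shCENPA1, 17 were called with lanes as replicates, 4 with voom and with only the 2 groups compared, 3 after quantile normalization, 2 with a filter at a mean of 0 log2 RPKM, with median-centred libraries and with the length trend removed, and 1 to 4 on leaving out a library. Against 1 between the knockdown groups, 6 were called with lanes as replicates, 2 with only the 2 groups compared and 0 to 2 on leaving out a library. The share of all genes called higher was 8.05% with shCENPA2, 11.3% with lanes as replicates and 6.47% without the variance trend. With shCENPA1 it was 2.69%, 6.17% with lanes as replicates, 3.47% with voom and 3.77% with only the 2 groups compared. It was 3.2% after quantile normalization, 2.85% with the stricter filter, 3.1% after median-centring and 2.94% after length correction. Between the knockdown groups it was 0.39%, 1.31% with lanes as replicates and 0.568% with 2 groups. The median log2 fold change of the members ranged, on leaving out a library, from 0.09 to 0.30 with shCENPA1, from 0.24 to 0.40 with shCENPA2 and from 0.0275 to 0.26 between them. Of the 22 calls with shCENPA2, 17 were lost at least once on leaving out a library, 11 held under all other alternatives apart from the limit of a log2 fold change beyond 1, and 0 reversed. A replicate block gave 21 calls with shCENPA2, 1 with shCENPA1 and 1 between them, where 6.81%, 2.09% and 0.328% of all genes were called higher. But equally numbered libraries share only a number (correlations of their deviations -0.06, -0.10 and -0.14), so the block was not used. Values near 0 turned sign. With shCENPA1, lane 7 alone gave NDUFA11 0.0298 and COX7C -0.001, lane 8 alone COX8A -0.001, quantile normalization NDUFA11 0.0451 and the length correction COX7C -0.0577. On leaving out a library with shCENPA1, COX6A1 ranged from -0.0484 to 0.2309, NDUFA11 from -0.1963 to 0.1498, NDUFB11 from -0.0896 to 0.3092, COX7A2P2 from -0.71 to 0.2927, COX7C from -0.0921 to 0.0921, COX7B from -0.0347 to 0.2698 and COX8A from -0.1573 to 0.1889. With shCENPA2, NDUFV2P1 had 0.0866 in lane 7 alone, 0.0068 after quantile normalization and 0.0028 with voom, and COX7C 0.0536 after quantile normalization. On leaving out a library with shCENPA2, NDUFV2P1 ranged from -0.3034 to 0.2079, COX7C from -0.0998 to 0.0364, COX6A1P2 from -0.0309 to 0.5389 and UQCRHL from -0.0909 to 0.1614. The cause of these changes was not tested. Depth limits the low members, such as NDUFA13 with 88 to 213 reads per library.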

Other observations

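NDUFA4L2 is known as a target of the low oxygen response, so 18 hypoxia response genes were read beside it, a list added after its value was seen. With shCENPA1, 0 rose and 2 fell, CA12 and ENO2, where 2.69% of all genes were called higher and 4.45% lower. At an unadjusted p under 0.05 in limma, 2 were higher and 6 lower (11.1% and 33.3%, against 10.7% and 11.4% of all genes). Voom called 0 higher and 4 lower (0% and 22.2%, against 3.47% and 5.95% of all genes). With shCENPA2, 2 rose, VEGFA (0.57) and ALDOC (0.41), and 6 fell. These are 11.1% and 33.3%, where 8.05% of all genes were called higher and 10.5% lower. CA12, a carbonic anhydrase, fell by 0.62 and 1.31 with shCENPA1 and shCENPA2. HK2 and LDHA, which encode a hexokinase and lactate dehydrogenase A of glycolysis, fell by 0.87 and 0.48 with shCENPA2, EGLN3 by 0.95, NDRG1 by 0.77 and ENO2 by 0.52. The median log2 fold change of the list was -0.01 and -0.11. PDK1, which holds pyruvate back from the citric acid cycle, had -0.03 and -0.05, and BNIP3 0.02 and -0.17, none of them called. These genes were named after their values were seen.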
